A study of Mus musculus with 6 samples.

Results

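Axon guidance genes encode secreted or membrane-bound cues and the receptors that read them. The genes examined here were chosen by symbol: netrins, UNC5 receptors, Slits, Robo receptors, semaphorins, plexins, neuropilins, Eph receptors and ephrins, plus Dcc and Neo1. The files list 72 such genes among 23337, and 60 of them had a summed count of 60 or more over the 6 libraries. They were measured by mRNA sequencing in basal cells sorted from mouse mammary glands, which form the outer, contractile layer of ducts and alveoli. The 4 knockout libraries came from Vim knockout mice (Vimtm1Cba/tm1Cba, both alleles targeted) and the 2 wild-type libraries from Vimwt/wt mice, all 15 weeks old and of the 129/Sv X C57BL/6 background. Each library was 1 pool of 2 to 3 mice, and its cells were sorted at passage p0, without culture, as live cells negative for CD45 and CD31, low in CD24 and high in CD49f. Vim encodes vimentin, an intermediate filament protein. Cells were collected in 2 experiments, taken here from a day code in the file names: knockout 3 and 4 with wild type 2 in experiment 2, and knockout 1 and 2 with wild type 1 in experiment 1.

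Guidance cues steer growing axons by attraction or repulsion, and the same molecules act between epithelial cells. Secreted netrins bind DCC, neogenin and UNC5 receptors, secreted Slits bind Robo receptors, semaphorins act through plexins with or without a neuropilin, and ephrins, tethered to the cell surface, bind Eph receptor kinases on the neighbouring cell. In the mouse mammary gland, netrin and neogenin are known for holding the cap cell layer of end buds in place, Slit and Robo for adhesion between the basal and luminal layers, and Eph and ephrin signalling for ductal growth.

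Total counts ran from 25347967 to 31200622 per library. Vim had 2938, 2645, 3318 and 2827 counts in knockout 1 to 4, against 7055 and 6256 counts in wild type 1 and 2. It was lower in all 4 knockout libraries, and its log2 fold change of knockout over wild type was -1.12 ± 0.12 (SE, at edgeR adjusted p = 0.0190). Counts are per gene, and where in Vim the remaining reads lie was not analysed here. The markers of basal cells (Krt5, Krt14, Trp63, Acta2, Myh11, Itga6 and Oxtr) summed to between 12469 and 14665 CPM in knockout libraries and to 14540 and 14744 CPM in wild type 1 and 2, and all 7 were detected. The sort removed CD31-positive cells; the 19 endothelial markers summed to 68.9 to 89.0 CPM in knockout, against 273 CPM in wild type 1 and 107 CPM in wild type 2, and all 19 had negative log2 fold changes. The 4 adipocyte markers summed to 5.31 to 8.81 CPM in knockout, against 42.9 and 11.6 CPM in wild type 1 and 2. Of these wild-type sums Fabp4, the only adipocyte marker tested, gave 42.7 and 11.5 CPM. Adipoq, Plin1 and Cidec were not tested and did not show this difference. They averaged 0.194, 0.0591 and 0.035 CPM in knockout, against 0.0649, 0.0497 and 0.0345 CPM in wild type. The 8 luminal markers summed to 1406 to 1695 CPM in knockout and 1536 and 1410 CPM in wild type, the 7 fibroblast markers to 102 to 139 CPM and 155 and 136 CPM, and the 7 leukocyte markers to 18.1 to 31.8 CPM and 27.1 and 25.8 CPM. The 8 Schwann cell markers summed to 306 to 461 CPM in knockout and to 338 and 262 CPM in wild type 1 and 2. Of the 8, 7 had log2 fold changes above 0, with a median of 0.72. An unadjusted edgeR p under 0.05, which 8.57% of all tested genes had, was found for 16 of the 19 endothelial and 3 of the 8 Schwann cell markers. It was found for 2 each of the luminal, pericyte and fibroblast markers, for Fabp4, and for 0 basal and 0 leukocyte markers. All 7 fibroblast markers were below 0, with a median of -0.43. The 7 pericyte markers summed to 426 to 540 CPM in knockout and to 298 and 308 CPM in wild type, of which Mcam alone gave 459 ± 50.2 CPM in knockout and 260.1 ± 21.2 CPM in wild type (SD, n = 4 and 2). Mcam rose with the replicate block, which compares libraries within each experiment (0.82 ± 0.11 (SE, at edgeR adjusted p = 0.00940), as a log2 fold change). The other 6 pericyte markers had log2 fold changes below 0, so that the median over the 7 was -0.43. Among the other markers edgeR with the block called 1 lower, of the endothelial list, where 0.438% of all genes were called lower. Mcam was called by DESeq2 by genotype alone too, and with the block edgeR did not call it when either wild-type library was left out.

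Most guidance genes had a log2 fold change within 0.5 of 0, but this was a smaller share than among all tested genes. A few netrin and semaphorin pathway genes, and Robo4, passed some of the tests. Of the 59 tested members, 44 had a log2 fold change of knockout over wild type within 0.5 of 0, against 85.3% of all tested genes, and 25 were above 0, against 47.6%. The median log2 fold change was -0.051 over the members and -0.011 over all tested genes. By genotype alone no member passed edgeR's quasi-likelihood test at a Benjamini-Hochberg adjusted p under 0.05 over the 13925 tested genes, and limma-voom also called 0. That test called 0.079% of all genes (0.0575% higher, 0.0215% lower), and limma-voom called 0.0718%. At an unadjusted p under 0.05 there were 6 members higher, where 4.48% of all genes were, and 5 lower, where 4.09% were (8.57% in both directions together). DESeq2 called 4 members by genotype alone, Ntn4, Unc5b and Nrp2 higher and Robo4 lower, where it called 1.88% of all genes.

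The experiments were then entered in the model as a replicate block, so that each knockout library was compared within its own collection. With this block edgeR called 5 members, where 1.56% of all genes were called. Ntn4, Unc5b, Nrp2 and Plxna4 rose, where 1.12% of all genes were called higher, and Sema6d fell, where 0.438% were called lower. DESeq2 with the block called these 5 with Plxnb3 and Robo4 in addition, where it called 4.85% of all genes, and limma-voom with the block called the 5 and Robo4, where it called 1.64%. In 5 members every knockout library was above both wild-type libraries (Unc5b, Ntn4, Nrp2, Plxnb3 and Ephb1), where 7.6% of all genes were so placed. In 7 members every knockout library was below both (Ephb4, Ephb3, Efnb2, Sema6d, Sema4b, Sema3e and Robo4), where 8.57% were. Together these make 12 of 59, where 16.2% of all genes did not overlap. The difference had the same sign within both experiments in 36 members, against 59.5% of all genes.

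**Figure D1:**
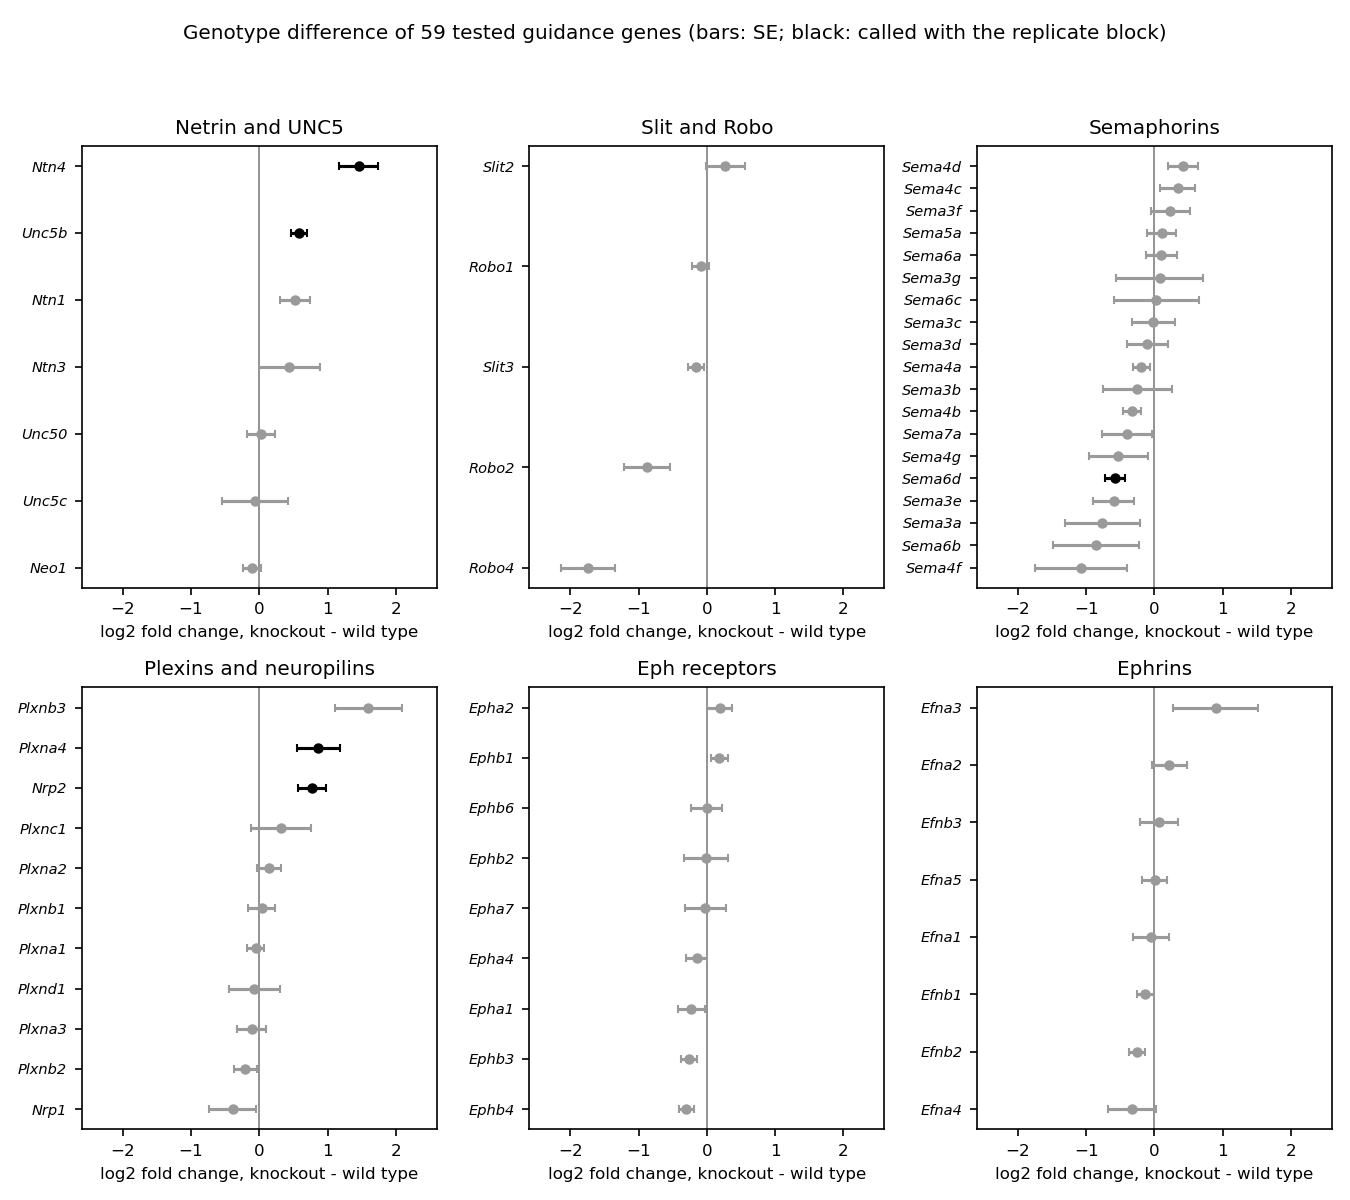
Log2 fold change of knockout over wild type by genotype alone (horizontal axis) for the 59 tested members, one panel per family, with the standard error as bars. The 5 members called with the replicate block are black: Ntn4, Unc5b, Plxna4 and Nrp2 lie right of 0 and Sema6d left of it, while all 9 Eph receptors lie within 0.5 of 0.

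The RefSeq start sites of Ntn4, Unc5b and Nrp2 coincide with the 5′ ends of these genes in the count files, and their promoters are shown because these 3 genes rose with the block and did not overlap between the genotypes. Each runs from 250 bases before to 50 bases after the start site (RefSeq, GRCm38.p6), 5′ to 3′ on the gene's strand, with every GC box in capitals, the sequence GGGCGG on either strand that Sp1 family factors are known to bind.
Ntn4 promoter, chr10:93640799-93641098, plus strand: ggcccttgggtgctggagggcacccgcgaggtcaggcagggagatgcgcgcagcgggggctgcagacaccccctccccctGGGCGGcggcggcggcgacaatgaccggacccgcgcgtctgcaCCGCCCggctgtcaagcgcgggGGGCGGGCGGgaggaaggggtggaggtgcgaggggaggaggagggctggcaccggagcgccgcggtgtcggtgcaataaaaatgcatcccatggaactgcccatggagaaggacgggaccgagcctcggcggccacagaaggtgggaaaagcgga
Unc5b promoter, chr10:60831532-60831831, minus strand: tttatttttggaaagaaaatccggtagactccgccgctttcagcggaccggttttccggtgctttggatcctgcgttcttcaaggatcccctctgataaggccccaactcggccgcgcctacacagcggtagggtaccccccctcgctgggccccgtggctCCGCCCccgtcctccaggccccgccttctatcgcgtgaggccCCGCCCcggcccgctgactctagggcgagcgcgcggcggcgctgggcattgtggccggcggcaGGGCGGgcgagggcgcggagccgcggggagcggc
Nrp2 promoter, chr1:62703067-62703366, plus strand: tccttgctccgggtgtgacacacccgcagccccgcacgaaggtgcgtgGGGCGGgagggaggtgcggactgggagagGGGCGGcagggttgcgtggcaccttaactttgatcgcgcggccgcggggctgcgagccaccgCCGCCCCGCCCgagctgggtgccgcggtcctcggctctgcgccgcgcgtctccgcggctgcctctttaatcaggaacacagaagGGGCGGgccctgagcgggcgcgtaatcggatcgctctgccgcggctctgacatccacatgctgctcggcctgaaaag
The Ntn4 window holds 4 GC boxes, 2 of them overlapping, the Unc5b window 3 and the Nrp2 window 5, also with 2 overlapping. A GC box is in 35.7% of the 32851 promoter windows searched and in 49 of the 69 windows that belong to members, which matched 53 of the 60 genes. The members' windows come only from genes that met the count rule. The 32851 windows were not filtered by counts, so these sets are not matched. The windows of Ntn4, Unc5b and Nrp2 contain 31, 36 and 37 CpG dinucleotides, against a median of 20 over the members' windows and of 7 over all. The other motifs searched on both strands were the TATA box (TATAAA, in 13.6% of all windows), the CCAAT box (CCAAT, 37.4%), the E-box (CACGTG, 7.15%), the TEAD core (GGAATG, 14.7%) and the AP-1 site (TGACTCA, 5.2%). None of these letters occurs in the 3 windows.

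Among the netrin genes, a ligand and a receptor rose in the fit with the block. Ntn4, a netrin related to laminin that is built into basement membranes (chr10:93641049-93745972, mm10), had 18.9, 19.5, 32.7 and 31.1 CPM in knockout 1 to 4, against 8.30 and 10.4 CPM in wild type 1 and 2. All knockout libraries lay above both wild-type libraries, and the knockout libraries of experiment 2 were the highest. Its mean was 25.5 ± 7.38 CPM in knockout and 9.33 ± 1.45 CPM in wild type (SD, n = 4 and 2), with a log2 fold change of 1.45 ± 0.28 (SE, at edgeR adjusted p = 0.176) by genotype alone and of 1.41 ± 0.15 (SE, at edgeR adjusted p = 0.00248) with the block. Within the experiments the log2 difference was 1.62 in experiment 2 and 1.20 in experiment 1. With the block Ntn4 was called whichever knockout library was left out, but not without wild type 1 (adjusted p = 0.0825) or wild type 2 (0.0585), when 1 experiment has no wild-type library.

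Unc5b, a repulsive netrin receptor also known from blood vessels (chr10:60762595-60831581), had 75.5, 90.3, 92.7 and 79.9 CPM in knockout 1 to 4, against 55.8 and 57.4 CPM in wild type 1 and 2. The wild-type libraries were close to each other and below all 4 knockout libraries. The means were 84.6 ± 8.22 CPM in knockout and 56.6 ± 1.13 CPM in wild type (SD, n = 4 and 2), and the log2 fold change was 0.58 ± 0.12 (SE, at edgeR adjusted p = 0.204) by genotype alone and 0.58 ± 0.11 (SE, at edgeR adjusted p = 0.0390) with the block. The difference was nearly the same size in both experiments, with log2 values of 0.58 in experiment 2 and 0.57 in experiment 1. This call was lost without knockout 3 (adjusted p = 0.0986), knockout 4 (0.0884), wild type 1 (0.318) or wild type 2 (0.329). Beside Ntn4, Unc5b and the other members that rose, Mcam and 7 of the 8 Schwann cell markers were also higher in knockout, while the other 6 pericyte, all 19 endothelial and all 7 fibroblast markers were lower. The part of these markers in the differences of Ntn4, Unc5b, Nrp2 and Plxna4 was not tested.

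The other netrin genes did not pass either edgeR test, by genotype alone or with the block. Ntn1, the secreted ligand of DCC, neogenin and UNC5 receptors, had 22.1, 25.0, 29.6 and 26.9 CPM in knockout 1 to 4, against 22.8 and 13.3 CPM in wild type 1 and 2. Wild type 2 was below every other library, while wild type 1 lay among the knockout libraries, and the log2 difference was 1.08 in experiment 2 and 0.047 in experiment 1. Neo1, which encodes neogenin, a receptor of netrins and of RGM proteins, had the highest level per length of the netrin genes, at 14.4 RPKM (counts scaled to library size and to exon length). Its means were 103 ± 11.9 CPM in knockout and 112 ± 12.4 CPM in wild type (SD, n = 4 and 2), and its log2 fold change was -0.11 ± 0.14 (SE, at edgeR adjusted p = 0.939). Ntn3 and Unc5c were low, at 0.151 and 0.0855 RPKM, and Ntn3 shares exon sequence on its strand with Tbc1d24, so its count is uncertain. Unc50 met the symbol rule but encodes a Golgi membrane protein that is not a netrin receptor; its log2 fold change was 0.027 ± 0.21 (SE, at edgeR adjusted p = 0.996). Dcc, the classical netrin receptor of neurons, had 0 counts in every library, which, with a floor of 3 counts over each group, allows a level of up to 0.0267 CPM over the 4 knockout libraries and 0.051 CPM over the 2 wild-type libraries, counting error only.

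**Figure D2:**
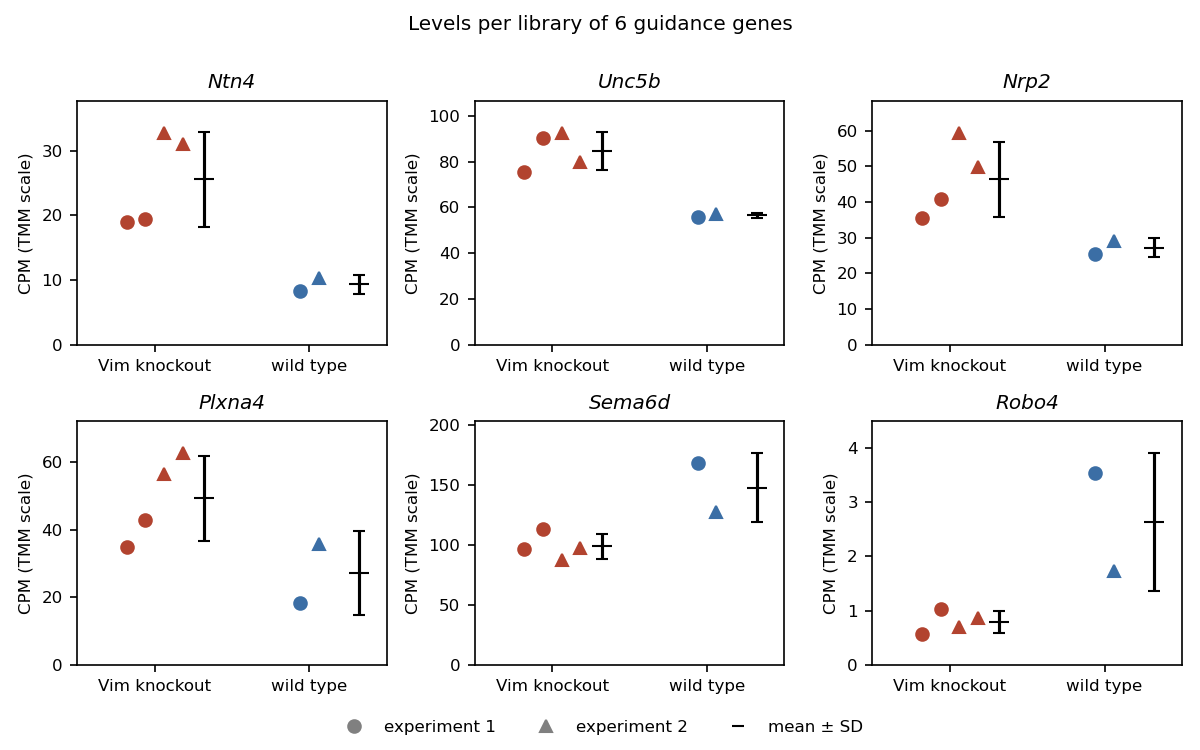
Level of 6 members in each library (CPM, vertical axis from 0), knockout left of wild type, triangles for experiment 2 and circles for experiment 1, with the mean ± SD of each genotype beside the points. Ntn4, Unc5b and Nrp2 are higher in all 4 knockout libraries than in both wild-type libraries, Sema6d and Robo4 lower, and Plxna4 of knockout 1 lies below wild type 2.

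Among the receptors of semaphorins, a neuropilin and a plexin rose with the block. Nrp2, the neuropilin that binds Sema3f and also VEGF-C (chr1:62703317-62818692), had 35.6, 40.8, 59.5 and 49.9 CPM in knockout 1 to 4, against 25.4 and 29.1 CPM in wild type 1 and 2. All knockout libraries were above both wild-type libraries. Its means were 46.4 ± 10.5 CPM in knockout and 27.2 ± 2.62 CPM in wild type (SD, n = 4 and 2), and its log2 fold change was 0.77 ± 0.21 (SE, at edgeR adjusted p = 0.299) by genotype alone and 0.75 ± 0.13 (SE, at edgeR adjusted p = 0.0263) with the block. The log2 difference was 0.90 in experiment 2 and 0.58 in experiment 1, and the call was lost without knockout 3 (adjusted p = 0.0595), knockout 4 (0.0654), wild type 1 (0.174) or wild type 2 (0.339).

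Plxna4, a class A plexin that pairs with neuropilins and binds Sema6a (chr6:32144557-32588192), had 34.8, 42.9, 56.5 and 62.6 CPM in knockout 1 to 4, against 18.3 and 35.8 CPM in wild type 1 and 2. The groups overlapped, because knockout 1 was slightly below wild type 2, but within each experiment both knockout libraries were above the wild-type one. The means were 49.2 ± 12.7 CPM in knockout and 27.1 ± 12.4 CPM in wild type (SD, n = 4 and 2), and the log2 fold change was 0.86 ± 0.32 (SE, at edgeR adjusted p = 0.489) by genotype alone and 0.90 ± 0.14 (SE, at edgeR adjusted p = 0.0136) with the block. The log2 difference was 0.73 in experiment 2 and 1.07 in experiment 1. Leaving out wild type 1 gave 0.47 by genotype alone and leaving out wild type 2 gave 1.42, and with the block it was not called without knockout 4 (adjusted p = 0.0548), wild type 1 (0.259) or wild type 2 (0.0849).

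The other 9 plexin and neuropilin genes did not pass either edgeR test. The most abundant per length were Plxnb2, a receptor of class 4 semaphorins, at 36.1 RPKM, Plxna1, a receptor of Sema6d, at 27.2 RPKM, and Plxnb1, the receptor of Sema4d, at 18.9 RPKM. Plxnb2 averaged 225 ± 41.7 CPM in knockout and 259.7 ± 26.8 CPM in wild type (SD, n = 4 and 2), Plxna1 242 ± 17.6 CPM in knockout and 251 ± 27.6 CPM in wild type, and Plxnb1 164 ± 33.8 CPM in knockout and 160.4 ± 34.8 CPM in wild type. Their log2 fold changes were -0.20, -0.051 and 0.033. Plxnb3, a low-level plexin, had 82, 74, 172 and 59 counts in knockout 1 to 4, against 49 and 19 counts in wild type 1 and 2. In CPM all knockout libraries were above both wild-type libraries, and the log2 fold change was 1.60 ± 0.49 (SE, at edgeR adjusted p = 0.369). Leaving out knockout 3, wild type 1 or wild type 2 gave 1.22, 2.23 or 1.19, and DESeq2 with the block called it (adjusted p = 0.0270). Nrp1, the other neuropilin, was at 1.33 RPKM with a log2 fold change of -0.39 ± 0.35 (SE, at edgeR adjusted p = 0.894), and a microRNA gene, Mir1903, overlaps its exons on the same strand. Leaving out wild type 2 gave -0.060 for Nrp1, which was -0.20 without knockout 2, -0.64 without wild type 1 and -0.66 without knockout 4. Plxnd1, Plxna3, Plxna2 and Plxnc1 had log2 fold changes between -0.11 and 0.32.

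Of the 20 semaphorin genes, 19 were tested and 1 fell. Sema6d, a transmembrane semaphorin that binds Plxna1 (chr2:124610296-124667770), had 96.9, 113, 87.4 and 97.7 CPM in knockout 1 to 4, against 168 and 127 CPM in wild type 1 and 2. Both wild-type libraries were above all 4 knockout libraries, and wild type 1 was the highest. The means were 98.8 ± 10.7 CPM in knockout and 148 ± 28.8 CPM in wild type (SD, n = 4 and 2), and the log2 fold change was -0.58 ± 0.15 (SE, at edgeR adjusted p = 0.269) by genotype alone and -0.57 ± 0.11 (SE, at edgeR adjusted p = 0.0326) with the block. Within the experiments it was -0.46 in experiment 2 and -0.68 in experiment 1. Without wild type 1 the log2 fold change by genotype alone was -0.35, and with the block the call was lost without knockout 3 (adjusted p = 0.0854), knockout 4 (0.0756), wild type 1 (0.399) or wild type 2 (0.169). The summed endothelial markers and Fabp4, the only adipocyte marker tested, were also highest in wild type 1. The untested adipocyte markers Adipoq, Plin1 and Cidec were not. The part of the endothelial markers and of Fabp4 in the Sema6d difference was not tested.

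The other semaphorins did not pass either edgeR test. Sema4c, a ligand of Plxnb2, was the most abundant per length at 38.9 RPKM and had 106, 214, 161 and 156 CPM in knockout 1 to 4, against 143 and 108 CPM in wild type 1 and 2. Its groups overlapped, with knockout 1 lowest and knockout 2 highest, and the log2 fold change was 0.34 ± 0.25 (SE, at edgeR adjusted p = 0.838), or 0.18 without knockout 2, 0.15 without wild type 2 and 0.58 without wild type 1. Sema3c, a secreted ligand of neuropilins and plexins, was at 22.0 RPKM and averaged 108 ± 27.2 CPM in knockout and 109.6 ± 57.1 CPM in wild type (SD, n = 4 and 2). Sema6a, the transmembrane ligand of Plxna2 and Plxna4, was at 18.7 RPKM and averaged 132 ± 25.0 CPM in knockout and 123 ± 42.4 CPM in wild type (SD, n = 4 and 2). Sema4b, another class 4 semaphorin, had 34.7, 35.0, 36.1 and 32.2 CPM in knockout 1 to 4, against 38.3 and 48.6 CPM in wild type 1 and 2. Its groups did not overlap, and the log2 fold change was -0.33 ± 0.13 (SE, at edgeR adjusted p = 0.523). Leaving out wild type 2 gave -0.15, and leaving out wild type 1 gave -0.47. Sema3e, which binds Plxnd1 without a neuropilin, was also lower in every knockout library, at 5.19 ± 1.63 CPM in knockout and 7.89 ± 0.491 CPM in wild type (SD, n = 4 and 2), with a log2 fold change of -0.60 ± 0.30 (SE, at edgeR adjusted p = 0.658). Sema3f, the ligand of Nrp2, averaged 29.3 ± 6.42 CPM in knockout and 24.9 ± 11.6 CPM in wild type (SD, n = 4 and 2), and its log2 difference was 0.62 in experiment 2 and -0.025 in experiment 1. Sema4d, the ligand of Plxnb1, had a log2 fold change of 0.42 ± 0.22 (SE, at edgeR adjusted p = 0.684), or 0.22 without wild type 2 and 0.68 without wild type 1. Sema3b, Sema4a, Sema5a, Sema7a, Sema6c, Sema4g and Sema3d lay between 1.36 and 14.3 RPKM, with log2 fold changes between -0.53 and 0.11. Sema6b, Sema4f, Sema3g and Sema3a were lower, at 0.0713 to 0.297 RPKM, with log2 fold changes between -1.08 and 0.078. Sema5b passed the count rule but was not tested, with 8, 4, 9 and 9 counts in knockout 1 to 4, against 35 and 7 counts in wild type 1 and 2. Wild type 1 alone had more than 9 counts.

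Slit3, Slit2 and Robo1 had higher levels per length than the other members of their family and passed neither edgeR test, while Robo4, at a low level, was called lower by DESeq2 and, with the block, also by limma-voom. Slit3 was at 13.7 RPKM, Slit2 at 13.3 RPKM and their receptor Robo1 at 7.46 RPKM. Slit2 had 94.7, 90.1, 129 and 138 CPM in knockout 1 to 4, against 63.4 and 124 CPM in wild type 1 and 2. Its groups overlapped, with wild type 1 the lowest library, and the log2 fold change was 0.27 ± 0.28 (SE, at edgeR adjusted p = 0.919), and -0.11, in the other direction, without wild type 1. Slit3 averaged 65.7 ± 6.05 CPM in knockout and 73.2 ± 1.95 CPM in wild type (SD, n = 4 and 2) and Robo1 55.3 ± 4.47 CPM in knockout and 58.9 ± 4.29 CPM in wild type, with log2 fold changes of -0.16 and -0.093. Robo4, the Robo receptor of endothelium, had 18, 26, 21 and 22 counts in knockout 1 to 4, against 116 and 45 counts in wild type 1 and 2. All knockout libraries were below both wild-type libraries. Its log2 fold change was -1.74 ± 0.39 (SE, at edgeR adjusted p = 0.225) by genotype alone and -1.69 ± 0.38 (SE, at edgeR adjusted p = 0.0595) with the block, and DESeq2 called it by genotype alone (adjusted p = 0.0219). The log2 fold change was -1.12 without wild type 1. The 19 endothelial markers had a median log2 fold change of -1.81 and moved with Robo4, highest in wild type 1, and their part in its difference was not tested; in bulk samples fewer cells of a type and less RNA per cell cannot be told apart. Robo2, another Slit receptor, had 8.61, 3.79, 4.06 and 4.72 CPM in knockout 1 to 4, against 11.1 and 8.35 CPM in wild type 1 and 2. Knockout 1 overlapped the wild-type libraries, and the log2 fold change was -0.87 ± 0.34 (SE, at edgeR adjusted p = 0.518). With the block it was -0.88 ± 0.28 (SE, at edgeR adjusted p = 0.186). Leaving out knockout 1 gave -1.18 with the block (edgeR adjusted p = 0.00863), and that refit also called Robo4, Sema4c and Sema4d. Robo2 was not called with the block without knockout 2, knockout 3 or knockout 4. Slit1 had 1 count in all 6 libraries together and Robo3 had 41.

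**Figure D3:**
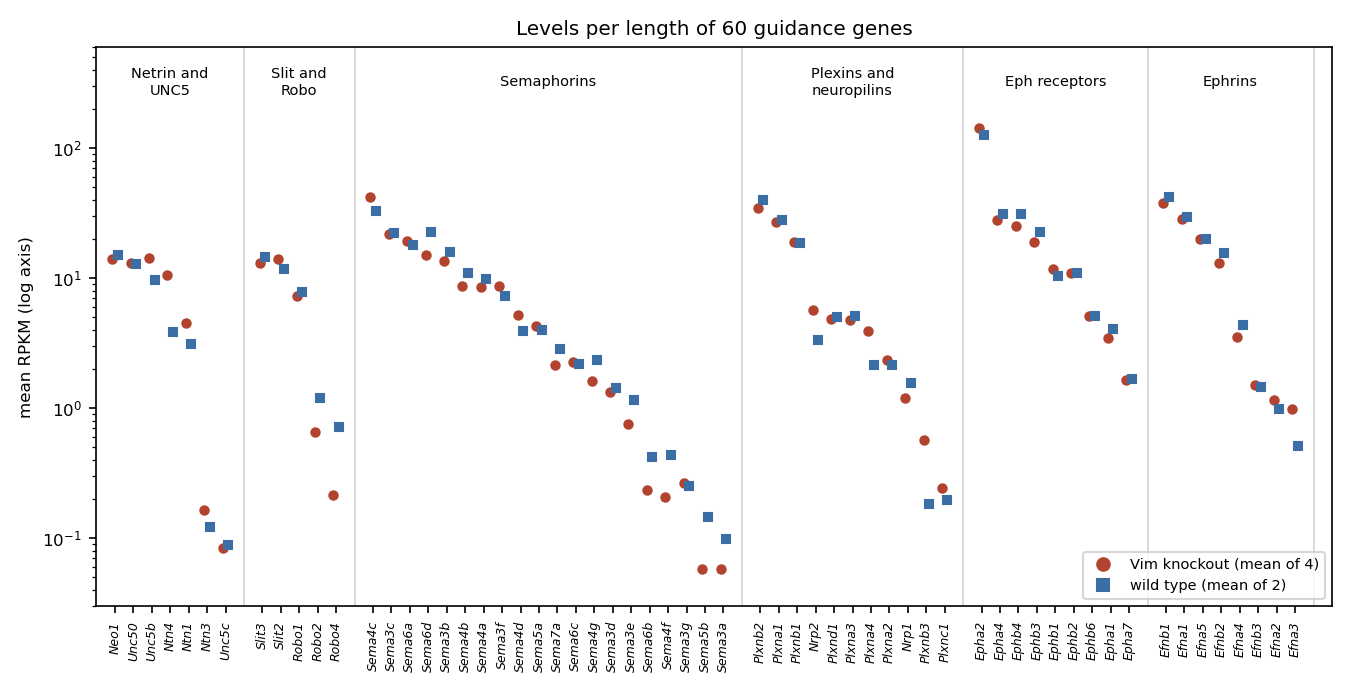
Mean RPKM of the 60 members (vertical log axis) in knockout (circles, left) and wild type (squares, right), ordered by level within each family. Epha2 stands above every other member in both genotypes, and the largest gaps between circle and square are at low-level genes such as Robo4, Plxnb3 and Sema5b and, among abundant ones, at Ntn4.

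No Eph receptor passed either edgeR test, and all 9 tested had log2 fold changes within 0.5 of 0. Epha2, a kinase known for its part in mammary branching, was the highest member per length at 137 RPKM, above 97.0% of all tested genes, and had 441, 687, 628 and 495 CPM in knockout 1 to 4, against 485 and 505 CPM in wild type 1 and 2. The wild-type libraries lay inside the range of the knockout libraries, and the log2 fold change was 0.19 ± 0.19 (SE, at edgeR adjusted p = 0.916). Epha4 followed at 28.9 RPKM, with means of 176 ± 11.6 CPM in knockout and 196 ± 49.0 CPM in wild type (SD, n = 4 and 2). Ephb4, the receptor of ephrin-B2, was at 27.2 RPKM and had 115, 110.1, 115 and 101 CPM in knockout 1 to 4, against 133 and 138 CPM in wild type 1 and 2. Its groups did not overlap, with a small log2 fold change of -0.30 ± 0.10 (SE, at edgeR adjusted p = 0.446). Ephb3, at 20.1 RPKM, was also lower in every knockout library, at 78.1 ± 7.54 CPM in knockout and 93.5 ± 6.91 CPM in wild type (SD, n = 4 and 2), a log2 fold change of -0.26 ± 0.12 (SE, at edgeR adjusted p = 0.616), or -0.16 without wild type 1. Ephb1 was higher in every knockout library, with a log2 fold change of 0.18 ± 0.13 (SE, at edgeR adjusted p = 0.812). Ephb2, Ephb6, Epha1 and Epha7 were at 1.67 to 11.0 RPKM. The log2 fold changes of the 9 lay between -0.30 and 0.19. Epha8, Epha3, Epha5 and Epha6 were under the count rule, and Epha10 had 0 counts.

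All 8 ephrin genes were detected, and none passed either edgeR test. Efnb1, a transmembrane ligand of B-class receptors, led at 39.4 RPKM and averaged 124 ± 11.2 CPM in knockout and 137 ± 15.1 CPM in wild type (SD, n = 4 and 2). Efna1, a GPI-anchored ligand of Epha2, was at 28.8 RPKM and averaged 46.8 ± 15.2 CPM in knockout and 48.5 ± 10.7 CPM in wild type (SD, n = 4 and 2), and Efna5, another A-class ligand, was at 19.9 RPKM and averaged 105 ± 17.9 CPM in knockout and 104 ± 22.7 CPM in wild type. Their log2 fold changes were -0.14, -0.051 and 0.0063. Efnb2, the ligand of Ephb4, had 62.6, 54.7, 58.4 and 50.9 CPM in knockout 1 to 4, against 70.9 and 64.7 CPM in wild type 1 and 2. The groups did not overlap, with both wild-type libraries higher, and the log2 fold change was -0.26 ± 0.12 (SE, at edgeR adjusted p = 0.604). Efna4, Efnb3 and Efna2 were at 1.10 to 3.80 RPKM, with log2 fold changes between -0.33 and 0.22. Efna3, a low-level gene next to Efna1 and Efna4 on chromosome 3, had 28, 45, 43 and 19 counts in knockout 1 to 4, against 34 and 6 counts in wild type 1 and 2. Only wild type 2 stood apart, and the log2 fold change was 0.90 ± 0.62 (SE, at edgeR adjusted p = 0.811). Leaving out wild type 2 gave 0.23 and leaving out wild type 1 gave 2.39.

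**Figure D4:**
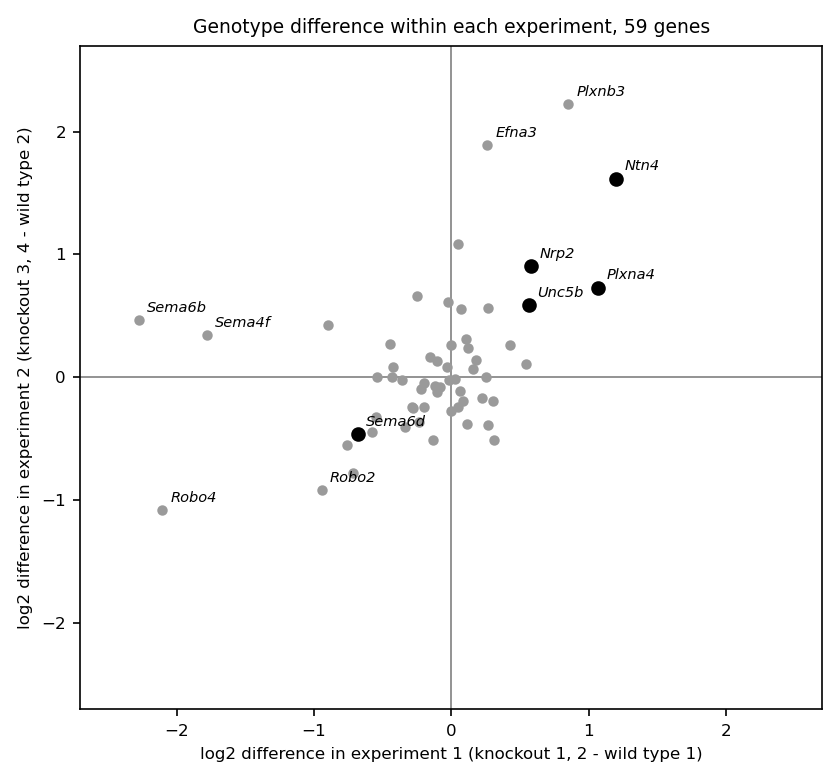
Log2 difference of knockout over wild type for 59 members in experiment 2 (vertical axis) and in experiment 1 (horizontal axis), which share no library. The 5 members called with the block (black) have the same sign in both, but the block fit used the same libraries, so this is not a separate test. Of the 59, 36 have the same sign in both, while Sema6b and Sema4f, at the left, are above 0 in experiment 2.

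The experiments also differed. With genotype in the fit, edgeR called 12 of 59 members between them, 8 higher in experiment 2, where 3.39% of all genes were called higher, and 4 lower, where 3.04% were (6.43% together). The count was 21 without knockout 1, 2 without knockout 4 (Sema3c and Sema6c) and 0 without wild type 1 or wild type 2. The share of all genes called was not counted in these refits, so their counts cannot be read as particular to the members. Sema6c, a transmembrane semaphorin, had the largest difference, at 3.39, 2.64 and 3.23 CPM in knockout 3, knockout 4 and wild type 2 of experiment 2, against 8.30, 11.4 and 9.31 CPM in knockout 1, knockout 2 and wild type 1 of experiment 1. All libraries of experiment 2 were lower, with a log2 fold change of experiment 2 over experiment 1 of -1.64 ± 0.20 (SE, at edgeR adjusted p = 0.00410). Slit2 had 129, 138 and 124 CPM in knockout 3, knockout 4 and wild type 2 of experiment 2, against 94.7, 90.1 and 63.4 CPM in knockout 1, knockout 2 and wild type 1 of experiment 1, so every library of experiment 2 was higher, with a log2 fold change of 0.68 ± 0.11 (SE, at edgeR adjusted p = 0.00915). Sema3c (0.79), Ephb2 (0.79), Plxna4 (0.73), Ntn4 (0.60), Sema6a (0.54), Sema5a (0.49) and Efna5 (0.42) were also higher in experiment 2 on the log2 scale, and Sema4g (-1.04), Plxnd1 (-0.82) and Ephb6 (-0.51) lower. A difference of the genotype effect between the experiments was called by edgeR's interaction test for 0 members, as for 0% of all genes, and 6 of 59 had an unadjusted p under 0.05, against 4.21% of all genes.

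Genes that act with the guidance receptors were read from lists of known pathway members. Of 57 intracellular effectors, 55 were tested, 22 with a log2 fold change above 0 and 33 below, where 47.6% of all genes were above 0, and the median was -0.036. By genotype alone edgeR and limma-voom called 0 of them, and 8 had an unadjusted edgeR p under 0.05, where 8.57% of all genes had. DESeq2 by genotype alone called Vasp lower (adjusted p = 0.0205), where it called 1.88% of all genes. With the block edgeR called 3, where 1.56% of all genes were called: Enah, an actin regulator downstream of netrin and Robo receptors, rose (0.63 ± 0.12 (SE, at edgeR adjusted p = 0.0362)), as did Pak1, a kinase activated by Rac and Cdc42 (0.56 ± 0.11 (SE, at edgeR adjusted p = 0.0336)), while Vasp, a relative of Enah, fell (-0.53 ± 0.11 (SE, at edgeR adjusted p = 0.0490)), all as log2 fold changes. Enah averaged 107 ± 15.1 CPM in knockout and 70.2 ± 19.9 CPM in wild type (SD, n = 4 and 2), Pak1 246 ± 43.7 CPM in knockout and 166 ± 28.3 CPM in wild type, and Vasp 298 ± 21.9 CPM in knockout and 429.6 ± 45.7 CPM in wild type. Of 36 co-receptors and other extracellular guidance genes, 30 were tested, 17 above 0 and 13 below, where 47.6% of all genes were above 0. Their median log2 fold change was 0.058, and 7 of the 30 had an unadjusted edgeR p under 0.05, where 8.57% of all genes had. By genotype alone edgeR and limma-voom called 0 of them. DESeq2 called Cntn2 higher (adjusted p = 0.0291) and Kdr lower (adjusted p = 0.0290), where it called 1.88% of all genes. With the block edgeR called 2, where 1.56% of all genes were called: Cntn2, a contactin of axons (0.93 ± 0.13 (SE, at edgeR adjusted p = 0.00995)), and Sdc4, a heparan sulphate proteoglycan (0.60 ± 0.12 (SE, at edgeR adjusted p = 0.0415)), rose. Cntn2 averaged 518 ± 136 CPM in knockout and 273 ± 84.8 CPM in wild type (SD, n = 4 and 2) and Sdc4 1025 ± 146 CPM in knockout and 678 ± 105 CPM in wild type. Of these 5 calls, all were lost without knockout 4 except Cntn2, and all without wild type 1 or wild type 2; Pak1, Vasp and Sdc4 were also not called without knockout 3, and Vasp without knockout 2. The 2 smallest p by genotype alone in that list belonged to Ntng1, a membrane-anchored relative of netrins (-0.59 ± 0.15 (SE, at edgeR adjusted p = 0.279)), and Kdr, a VEGF receptor that is also 1 of the 19 endothelial markers (-2.21 ± 0.58 (SE, at edgeR adjusted p = 0.279)). For Kdr, leaving out wild type 1 gave a log2 fold change of -0.53.

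The 12 members under the count rule were too low to compare. Just outside it were Unc5cl with a summed count of 58, Epha8 with 52 and Robo3 with 41, and just inside it Sema5b with 72, Sema3a with 87 and Ntn3 with 128. Unc5cl, Epha8 and Robo3 entered the fit over all genes and were not called. The netrin gene Ntn5 had a summed count of 2, and the receptor genes Unc5d and Unc5a had 5 and 1.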

How the data were processed

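Each library has 1 deposited file of raw read counts over genes, produced by the authors with featureCounts 1.5.1 over exons of the UCSC mm10 annotation in the reverse-stranded setting (option 2), per the file headers. STAR 2.5.2b, Subread 1.5.1 and bcl2fastq 2.17 are named in the submitters' processing notes, and a stranded mRNA kit in the labels' protocols. The command in the headers lacks the options that keep multi-mapped or multi-overlapping reads, so counts of near-identical or overlapping genes are uncertain.

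Counts were compared with edgeR 4.0.16 in R 4.3.3: filterByExpr (13925 genes tested, 9412 not), TMM scaling, glmQLFit (robust) and glmQLFTest (2-sided), with Benjamini-Hochberg adjustment over all tested genes and a threshold of 0.05. CPM and RPKM used TMM-scaled library sizes, within-experiment log2 differences used a prior count of 2, and each SE was computed from the log2 fold change and the F statistic. DESeq2 1.42.0 and limma-voom (limma 3.58.1) were alternatives. The scripts were tested on simulated counts. Each library pooled several mice, so p-values measure the spread between these pools.

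The labels name independent experiments but not which libraries each holds; a day code in the file names gave that, and was used as a technical batch. Deviations from the group means correlated between the wild-type and knockout libraries of an experiment (r = 0.32, 0.29, 0.25 and 0.41 across genes), so the experiment was taken to pair them. The deviations of the 2 wild-type libraries mirror each other, and those of the 4 knockout libraries sum to 0 for each gene. The 4 correlations are therefore not independent of each other. Between knockout libraries of the same experiment r was -0.22 (knockout 1 and 2) and -0.0047 (knockout 3 and 4). Between knockout libraries of different experiments it ran from -0.55 to -0.38. No library pair agreed within sampling noise.

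Named with values were members called in either fit and, per family, the 3 highest in RPKM and the 2 with the smallest p in each fit; in the effector and co-receptor lists, those called or with the 2 smallest p; and Vim. Other members are named for completeness, after their values were seen. The members, lists and rules were chosen with earlier results of these data known.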

Additional observations from a re-analysis of the deposited data

How the results depend on the processing

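The number of members called was 0 by genotype alone and stayed 0 with other size factors, with other low-count filters, by limma-voom, at an adjusted p under 0.1 and without any 1 library. It was 4 by DESeq2, 5 with the replicate block by experiment, and, in alternatives added after the data were seen, 7 by DESeq2 and 6 by limma-voom with that block. With the block and 1 library left out it ran from 0 (without wild type 1 or wild type 2) to 9 (without knockout 1), and was 1 without knockout 4 and 2 without knockout 3. Over all genes 11 were called, 262 by DESeq2, 217 with the block, 676 by DESeq2 and 229 by limma-voom with the block, from 3 (without knockout 3) to 15 when 1 library was left out, and from 4 to 940 with the block without 1 library. A replicate block by title number, over the 4 libraries with a shared number, called 0 members and 12 genes. With so few libraries these counts cannot show whether title numbers pair libraries. By the day code, knockout 1 and wild type 1 share an experiment, while knockout 2 and wild type 2 do not. Beside the calls given above, Mcam and the 5 list genes included, the block by experiment changed no other call of a gene named with values. Members called between the experiments, 12 in all, ran from 0 to 21 when 1 library was left out, also added after the data were seen. Calls over all genes between the experiments were not counted in these refits. Members above 0 were 25 with TMM and 27 with either other scaling, and the count rule kept 64 members at 30 counts and 58 at 120.

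Ntn4, Unc5b, Nrp2, Plxna4, Sema6d, Robo4, Robo2, Plxnb3, Ephb4, Ephb3, Efnb2, Sema4b, Enah, Pak1, Vasp, Cntn2, Sdc4 and Vim kept their direction in every alternative run. Epha2, Plxnb2, Sema4c, Slit3, Efna3, Ntn1, Ephb1, Sema3e, Nrp1 and Sema4d kept theirs too. The remaining members run in these alternatives did not, most of them nearer 0 than Slit2 and Sema3f. Those were at 0.27 and 0.24 by genotype alone. The log2 fold change of Sema3c was 0.057 by limma-voom, 0.048 with the block by experiment, and 0.062 and 0.052 by DESeq2 and limma-voom with that block. With the block by title number it was 0.14 for Efna1, -0.20 for Efna5, 0.012 for Neo1, -0.24 for Unc50 and -0.11 for Sema6a. Without 1 library, with or without the block, it ran for Epha4 from -0.37 to 0.13, Efnb1 -0.25 to 0.010, Efna1 -0.29 to 0.21, Efna5 -0.18 to 0.25, Neo1 -0.22 to 0.027, Unc50 -0.15 to 0.19, Plxna1 -0.17 to 0.091, Plxnb1 -0.17 to 0.29, Sema3c -0.45 to 0.65, Sema6a -0.19 to 0.51, Slit2 -0.11 to 0.84, Sema3f -0.17 to 0.84 and Robo1 -0.22 to 0.051. The cause was not tested. By genotype alone the log2 fold change of Enah ran from 0.37 to 0.94 without 1 library, lowest without wild type 1, and the edgeR adjusted p of Vim was 0.0403 without knockout 1, and above 0.05, up to 0.0908, without any other library. With 2 wild-type libraries, small differences of low-count members could not be seen at this number of samples.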

Other observations

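Of the 6 members whose genotype difference differed between the experiments at an unadjusted p under 0.05, none passed the adjustment over all genes. Ntn1 had a log2 difference of knockout over wild type of 1.08 in experiment 2 and 0.047 in experiment 1 (edgeR interaction, adjusted p = 0.998). Sema7a had 0.42 in experiment 2 and -0.90 in experiment 1, and Sema6b, with 9, 16, 43 and 35 counts in knockout 1 to 4, against 77 and 26 counts in wild type 1 and 2, had 0.47 in experiment 2 and -2.28 in experiment 1. The differences were -0.38 in experiment 2 and 0.12 in experiment 1 for Epha4, -0.19 in experiment 2 and 0.30 in experiment 1 for Sema3c and 0.11 in experiment 2 and 0.54 in experiment 1 for Slit2.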
